A study of Sus scrofa with 22 samples.

Results

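The genes described here are the solute carriers (SLC) for inorganic ions, zinc, phosphate, bicarbonate, protons and metals in the porcine endometrium on Day 12. They were chosen by symbol alone, as the members of the families SLC4, SLC8, SLC9, SLC11, SLC12, SLC20, SLC24, SLC26, SLC30, SLC31, SLC34, SLC39, SLC40 and SLC41 with an A number, and SLC24A4 was left out. The NCBI annotation of Sscrofa11.1 holds 83 such carriers, of which 52 were among the 12401 genes listed in at least 1 of the 3 count tables. For LE (luminal epithelium) 49 of 11415 listed genes were carriers, for GE (glandular epithelium) 48 of 11676 and for S (stroma) 48 of 11532, and 45 carriers were listed in all 3 tables. The other 31 carriers were in no table, among them all 3 SLC34A phosphate carriers, SLC9A3, SLC26A3, SLC26A6 and SLC39A4, and were not analysed here.

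Cells had been cut by laser capture microdissection (LCM) from endometrium sections of 8 gilts, prepubertal German Landrace and Piétrain crosses whose oestrus had been synchronized with gonadotropins. The 4 pregnant gilts had been inseminated with semen, whereas the 4 control gilts (cyclic) had received only semen supernatant from the same boar. The 22 libraries comprised 1 LE and 1 GE library from each gilt and an S library from 3 gilts of each state, at Day 12 throughout. The study describes S as fibroblasts mixed with other cells, chiefly immune cells. Every library is a bulk sample, in which fewer cells of a type and less RNA per cell cannot be told apart.

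Zinc is moved by a pair of opposed families. SLC30A proteins (ZnT) carry zinc out of the cytosol, across the plasma membrane or into vesicles and the secretory pathway, and SLC39A proteins (ZIP) carry it into the cytosol. Metallothioneins bind zinc in the cytosol, and their genes respond to it through the factor MTF1. In an epithelium, SLC9A exchangers trade sodium for protons, SLC4A and SLC26A carriers move bicarbonate, chloride and sulphate, and SLC12A cotransporters move chloride together with sodium or potassium, driven by the gradient of the sodium-potassium pump. In the pig, the uterine lumen around the elongating conceptus receives ions, calcium, phosphate and metal-binding proteins from the epithelium.

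Libraries held 893912 (pregnant LE of gilt 01) to 4020796 counts on listed genes, and levels are given as CPM, the count relative to the size of the library, on 1 scale for all 22 libraries, after trimmed mean (TMM) normalization. A level of 3 counts corresponded to 0.703 to 3.61 CPM. Marker genes did not bear out the label S. EPCAM and CDH1, which mark epithelium, were at 192 to 680.3 and 392 to 2152 CPM in the libraries labelled S, compared with 184 to 625 and 856 to 2021 CPM in LE. The collagen gene COL1A1, a fibroblast marker, was at 1171 to 2120.1 CPM in control S, below the 3369 to 4086 CPM of control LE, and reached 20761 CPM only in pregnant S of gilt 01. FOXA2, a marker of glands, was not listed for LE and was at 16.6 to 109 CPM in GE and 11.3 to 133 CPM in S. Only 1 of the 4 gland markers was listed in all 3 tables, and it did not separate GE from LE. It was at 4.78 to 13.6 CPM in LE, 3.9 to 25.01 CPM in GE and 3.35 to 17.9 CPM in S. Of 12 leukocyte markers, 4 were listed in all 3 tables, with a summed level of 60.3 to 231 CPM in S and 57.1 to 179.9 CPM in LE. Among the GE libraries, control gilt 02 stood apart, with 3857 CPM of the smooth muscle gene ACTA2, 12809 CPM of COL1A1 and 101 CPM of EPCAM, against 335 to 606 CPM of EPCAM in pregnant GE. Pregnant LE of gilt 01 likewise held 3499 CPM of ACTA2. The part of these cells in the results was not tested. Values for S are therefore given for the libraries labelled S.

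Per kilobase of exon, carriers were expressed at levels like those of other genes, with a median of 9.31 CPM per kb over the 49 carriers of LE (10.0 over all listed genes), 9.59 in GE (9.62) and 10.3 in S (9.71). The copper importer SLC31A1 had the highest mean of the carriers in control LE, at 157 ± 40.7 CPM per kb (mean ± SD, n = 4), followed by the sodium-proton exchanger SLC9A4 at 91.5 ± 12.8 and the zinc exporter SLC30A3 at 57.4 ± 17 CPM per kb. In pregnant LE, SLC31A1 at 153 ± 42.4 CPM per kb was followed by the sodium-potassium-chloride cotransporter SLC12A2 at 118 ± 60.4 and the zinc exporter SLC30A5 at 99 ± 12.3 CPM per kb, while SLC9A4 was at 21 ± 8.85. SLC12A2 had the highest mean in control GE, at 280.2 ± 173 CPM per kb, followed by the zinc importer SLC39A2 at 151 ± 110.2, SLC31A1 at 127 ± 41.8 and the zinc exporter SLC30A2 at 125 ± 76.5 CPM per kb. In pregnant GE the same carriers were at 375 ± 224, 119 ± 94.1, 214 ± 119 and 72.6 ± 52.6 CPM per kb. In the libraries labelled S, SLC31A1 and SLC12A2 had the 2 highest means, at 201 ± 77.5 and 87.8 ± 39.5 CPM per kb in control and 125 ± 85.3 and 209 ± 183 CPM per kb in pregnant gilts (n = 3). Many neighbours in these orders lie within each other's SD.

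In 7 of the 11 families the member with the highest mean was the same in each cell type and state. SLC31A1 was above SLC31A2, SLC12A2 above the other cation-chloride cotransporters and SLC20A1 above SLC20A2, with 35.5 ± 8.51, 72.9 ± 26.3 and 50.1 ± 25.4 CPM per kb for SLC20A1 in LE, GE and S over both states. SLC40A1 (ferroportin, the cellular iron exporter) was above SLC11A2, at 14.1 ± 5.06, 24.8 ± 8.83 and 16.3 ± 13.1 CPM per kb. The sodium bicarbonate cotransporter SLC4A7 was at 12.6 ± 2.19, 19.6 ± 9.70 and 16.7 ± 4.75 CPM per kb, the sodium-calcium exchanger SLC8A1 at 4.98 ± 3.15, 4.50 ± 5.04 and 4.23 ± 2.16, and the magnesium carrier SLC41A1 at 59.7 ± 26.2, 13.6 ± 5.75 and 33.2 ± 17.7 CPM per kb. In 4 families the first place differed between groups. The sulphate carrier SLC26A2 had the highest mean of its family except in control GE, where it was at 8.99 ± 2.05 CPM per kb and SLC26A11 at 9.21 ± 3.36. SLC9A4 was first among the sodium-proton exchangers in control LE, GE and S, and SLC9A2 (pregnant LE and S) or SLC9A8 (pregnant GE) in pregnant gilts, with 42.7 ± 5.44 CPM per kb of SLC9A2 in pregnant LE. Of the zinc exporters, SLC30A3 was first in control LE, SLC30A2 in GE of both states and in control S, and SLC30A5 in pregnant LE and pregnant S. Of the zinc importers, SLC39A2 was first in GE and S of both states, SLC39A13 in control LE (29.3 ± 6.52 CPM per kb) and SLC39A9 in pregnant LE (34.8 ± 2.06 CPM per kb).

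In comparison of pregnant and control gilts, 6 of 49 carriers were differentially expressed (DE) in LE, at a false discovery rate (FDR, Benjamini-Hochberg) below 0.01 in the quasi-likelihood test of edgeR. This was 12.2% of the carriers, against 10.0% of all genes listed for LE. The zinc exporter SLC30A5 and the exchanger SLC9A2 were higher in pregnant LE (6.33% of all genes were called higher), whereas the zinc exporter SLC30A2, the exchanger SLC9A4, the low-affinity copper carrier SLC31A2 and SLC8A1 were lower (3.71% of all genes). The median log2 fold change (FC) of the carriers was −0.04, compared with 0.01 over all genes, and a positive log2 FC between states means a higher level in the pregnant group. The plot of log2 FC of the listed carriers by cell type shows the calls in LE spread over 4 of the 11 families. Pregnant and control LE libraries did not overlap for 5 carriers that were higher and 7 that were lower, against 14.1% and 12.6% of all genes. At an unadjusted p below 0.05 there were 19 carriers (35.6% of all genes). When limma voom treated the gilt as a random block over all cell types, a fit that tests the 45 carriers of all 3 tables and pools their spread, only SLC30A5 remained past the threshold (8.48% of all genes were), and the FDR of the other 5 was between 0.0194 and 0.0740.

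**Figure D1:**
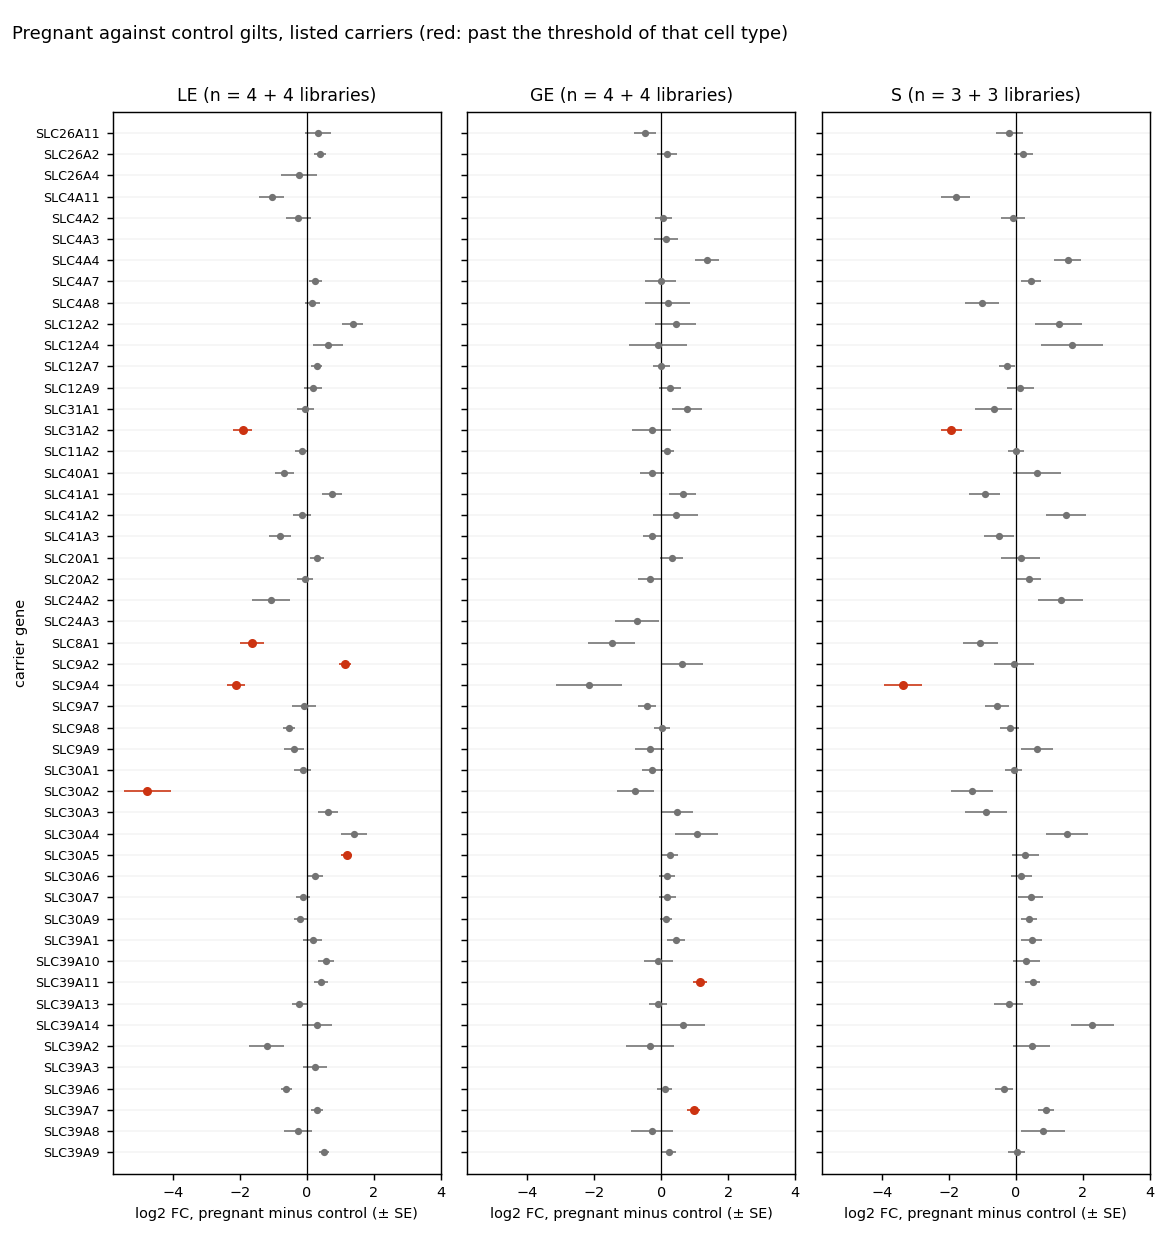
Log2 FC (pregnant minus control, ± SE) of 49 of the 52 listed carriers in LE, GE and S, grouped by family, with carriers past the threshold of their cell type in red (FDR below 0.01 in LE, unadjusted p below 0.0021 in GE and S). SLC30A2 is the point farthest from 0 in LE at −4.76, and SLC9A4 that in S at −3.39, and rows without a point were not listed for that cell type.

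GE and S showed fewer such carriers. At the unadjusted p value of 0.0021 that the study used for these cell types, the zinc importers SLC39A11 and SLC39A7 were DE in GE, both higher in pregnant gilts (2 of 48 carriers, 4.17%, against 0.694% of all genes, 0.574% higher and 0.120% lower). In S the call was for SLC9A4 and SLC31A2, both lower in pregnant gilts (2 of 48, 4.17%, against 1.47% of all genes, of which 1.05% were lower and 0.425% higher). None of these 4 calls reached an FDR of 0.05. In the study, the p value of 0.0021 went with an FDR of 0.01 in its own LE fit. The fit used here called fewer LE genes at that FDR (1146), so 0.0021 is looser than the cut-off for LE. Marker genes also moved between control and pregnant S. The summed level of the 8 fibroblast markers was 4709 to 8645 CPM in control and 8227 to 59664 CPM in pregnant S, with higher values for 8 of 8 and none called, and that of the 10 epithelial markers was 2923 to 3554 and 1257 to 4439 CPM, with lower values for 7 of 10 and 1 called. Lymphatic markers (4 listed for S) summed to 7.80, 5.15 and 7.72 CPM in control and 241, 90.1 and 27.6 CPM in pregnant S, and 2 of the 4 were called higher. Their part in the results for S was not tested. Pregnant and control libraries did not overlap for 3 carriers in GE, all higher (2.81% of all genes were higher and 2.16% lower without overlap), and for 5 higher and 5 lower in S (7.26% and 10.1%). At an unadjusted p below 0.05 there were 3 carriers in GE (8.09% of all genes) and 8 in S (12.5%). The median log2 FC of the carriers was 0.12 in GE (−0.02 over all genes) and 0.16 in S (0.08).

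Between the cell types, compared within gilts over both states, GE differed from LE for 11 of 45 carriers at an FDR below 0.01 (24.4%, against 20.8% of all genes). The zinc carriers SLC30A2 and SLC39A2, SLC12A2, the phosphate carrier SLC20A1 and the iron carrier SLC11A2 were higher in GE (10.4% of all genes). SLC9A4, SLC9A2, SLC41A1, SLC30A3, SLC30A5 and the zinc importer SLC39A10 were lower in GE (10.4% of all genes). The libraries labelled S differed from LE for SLC30A2 and SLC39A2 only, both higher in S (2 of 45, 4.44%, against 1.69% of all genes, 1.61% higher and 0.0846% lower). For S against GE no carrier was called by edgeR (0% of all genes), with 14 carriers at an unadjusted p below 0.05 (13.2% of all genes), while DESeq2 called SLC41A1 and 0.648% of all genes. The plot of carriers between cell types orders 42 of the 45 by their difference between GE and LE.

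**Figure D2:**
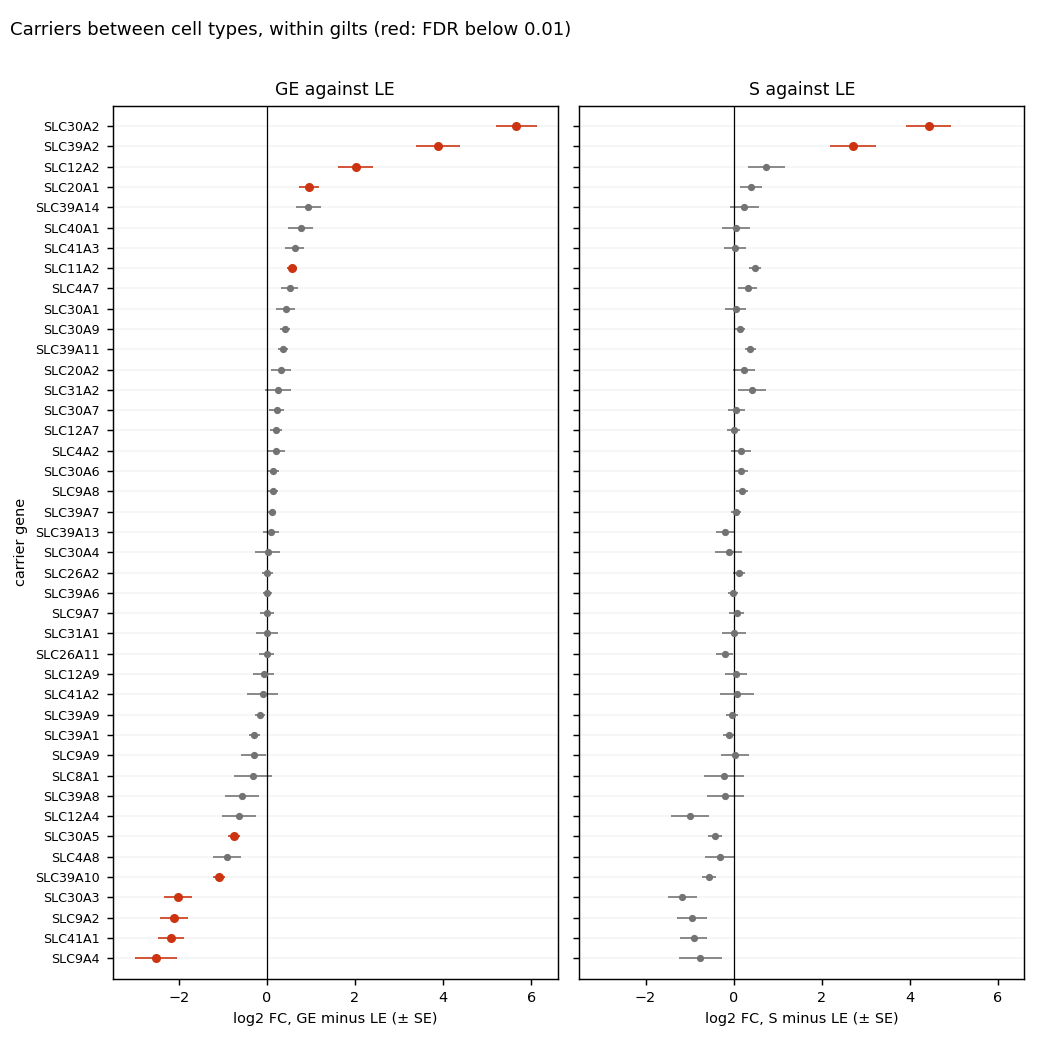
Log2 FC of 42 of the 45 carriers listed in all 3 tables, GE minus LE on the left and S minus LE on the right (± SE, fit with the gilt as a block, both states averaged), with an FDR below 0.01 in red. SLC30A2 and SLC39A2 are at the top of both panels, at 5.66 and 3.88 in GE and at 4.43 and 2.71 in S, and SLC9A4 is at the bottom of the left panel at −2.52.

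SLC30A2 (ZnT2, gene 100170651, chr6:83478761-83484876, minus strand, Sscrofa11.1) loads zinc into secretory vesicles and is known for zinc secretion by the mammary gland. In GE it was at 80.7, 291, 89.6 and 255 CPM in the control and 72.4, 216, 55.1 and 71.9 CPM in the pregnant libraries, whereas control LE held 8.65, 10.9, 24 and 7.50 CPM and pregnant LE 0, 0, 0.617 and 0.633 CPM. All GE libraries were above all LE libraries, and pregnant LE held almost no counts of the gene. The pooled control LE libraries had 163 counts and the pregnant ones 4, a ratio of 27.6 at equal depth (95% exact interval for counting error 10.6 to 102.6). The log2 FC in LE was −4.76 ± 0.69 (± SE, FDR = 0.00116, edgeR), a fitted value that depends on the prior count at so few counts, and the call remained without each gilt in turn. The difference between GE and LE was 5.66 ± 0.47 (FDR = 3.23e-05, edgeR) with GE higher in 8 of 8 gilts. In GE, pregnant and control libraries overlapped, and the log2 FC was −0.78 ± 0.55 (FDR = 0.754, edgeR). The pregnancy effect itself differed between GE and LE by 3.82 ± 1.03 (FDR = 0.0618, edgeR), which is not past the threshold. In the libraries labelled S, SLC30A2 was at 30.8, 169 and 40.8 CPM in control gilts 02, 04 and 13, in which the gland marker FOXA2 was at 11.3, 63 and 12.1 CPM, and at 35.7, 32.5 and 26.4 CPM in pregnant gilts 01, 05 and 14, with FOXA2 at 24.8, 47.9 and 133 CPM.

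SLC39A2 (ZIP2, gene 100625755, chr7:78127628-78132900, minus strand) is a plasma membrane zinc importer. It had the second largest excess in GE, at 139, 1191, 395 and 1029 CPM in control and 433, 1162, 405 and 173 CPM in pregnant GE, against 68.8, 40.3, 74.1 and 61.6 CPM in control and 6.02, 59.5, 10.2 and 28.2 CPM in pregnant LE. GE was higher than LE in 8 of 8 gilts, by 3.88 ± 0.50 (FDR = 0.000138, edgeR), and this call remained without each gilt. The lowest control GE value was that of gilt 02, the library with high ACTA2. In pregnant LE, 3 of the 4 libraries were below all control libraries and 1 was among them, and the log2 FC of −1.2 ± 0.53 did not pass the threshold (FDR = 0.134, edgeR). S was at 207, 292 and 61.8 CPM in control and 241, 162 and 357 CPM in pregnant gilts. Its difference from LE of 2.71 ± 0.52 had an FDR of 0.00858 (edgeR) and was lost when gilt 01, 02, 03, 04, 05 or 14 was left out, and that of SLC30A2 (4.43 ± 0.51, FDR = 0.00211, edgeR) when gilt 04 or 05 was left out. Without gilts 01 and 02 together, no carrier was called between S and LE.

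SLC30A5 (ZnT5, gene 100171388, chr16:47284974-47320892, plus strand) supplies zinc to the secretory pathway. It was at 95.5, 113, 107 and 86.9 CPM in control LE and 212, 236, 271 and 208 CPM in pregnant LE, so that every pregnant library was above every control library. The log2 FC was 1.2 ± 0.16 (FDR = 0.00076, edgeR), a 2.29-fold increase, and it is the carrier whose call in LE remained in all 8 leave-one-out fits and all 7 other fits. GE held 84.7, 84, 98.1 and 70.6 CPM in control and 86.1, 81, 147 and 87.5 CPM in pregnant gilts, with a single high library, and was lower than LE (log2 FC −0.75 ± 0.13, FDR = 0.000963, edgeR, 8 of 8 gilts). The pregnancy effect differed between GE and LE by −0.99 ± 0.27 (FDR = 0.0630, edgeR), again not past the threshold. SLC30A3 (ZnT3, chr3:111870803-111878234, plus strand), known for loading synaptic vesicles, was at 114, 79.2, 56.5 and 74.3 CPM in control LE and 152, 188, 95.7 and 73.5 CPM in pregnant LE but at 15.8, 10.9, 43.5 and 21.3 CPM in control and 41, 28.1, 45.4 and 13.5 CPM in pregnant GE. GE was lower in each of the 8 gilts, with a log2 FC against LE of −2.02 ± 0.31 (FDR = 0.000385, edgeR). The other 5 listed exporters, SLC30A1, SLC30A4, SLC30A6, SLC30A7 and SLC30A9, passed no test. SLC30A4 was at 21.8, 21, 14.1 and 15.9 CPM in control and 20.5, 30.3, 88.6 and 49.4 CPM in pregnant LE (log2 FC 1.41 ± 0.40, FDR = 0.0288, edgeR).

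**Figure D3:**
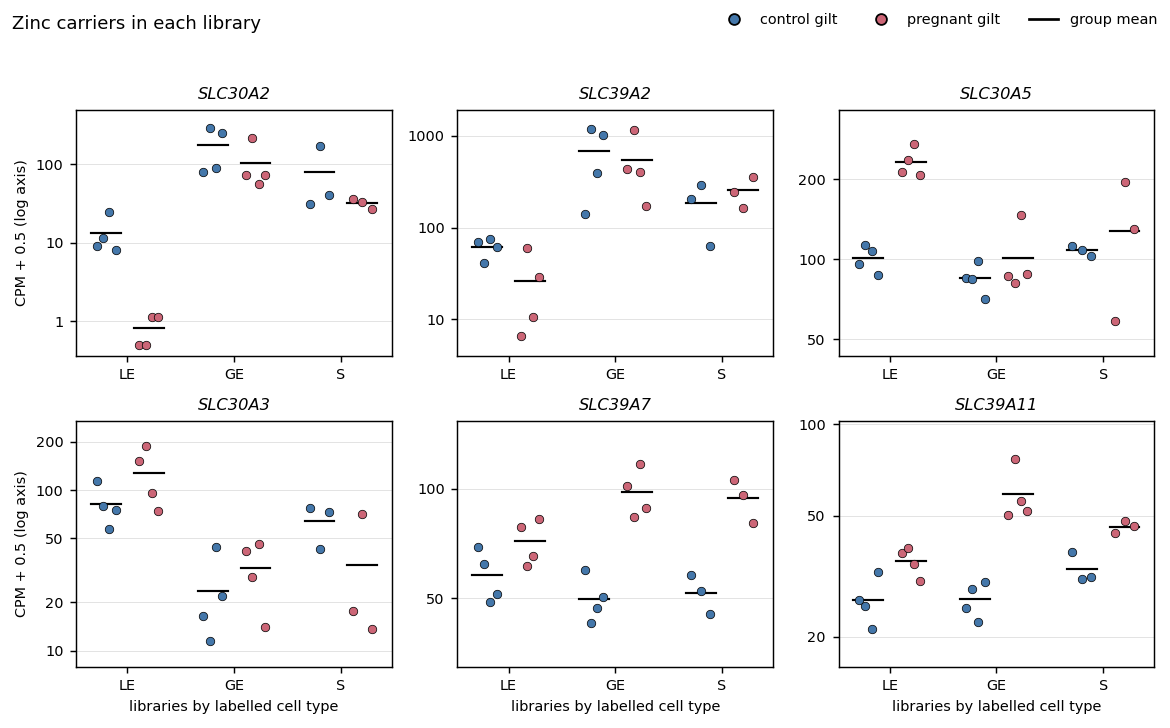
CPM + 0.5 on a log axis of 6 zinc carriers in every library (points), by cell type and state, with group means as lines. SLC30A2 and SLC39A2 sit higher in all GE libraries than in the LE library of the same gilt, SLC30A5 is above all control LE libraries in the 4 pregnant LE libraries, and SLC39A7 and SLC39A11 separate the states in GE.

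Among the importers, SLC39A7 (ZIP7, gene 100155600, chr7:25242862-25247407, plus strand), which releases zinc from the endoplasmic reticulum, was at 59.2, 42.2, 46.6 and 49.8 CPM in control and 101, 83.2, 117 and 88.2 CPM in pregnant GE. The log2 FC was 0.97 ± 0.20 (FDR = 0.216, edgeR), and the groups did not overlap. S showed a similar separation, with 57.3, 51.8 and 44.8 CPM in control and 106, 95.4 and 80.3 CPM in pregnant libraries, but its log2 FC of 0.90 ± 0.24 missed the threshold (FDR = 0.206, edgeR). In LE the values overlapped, at 68.8, 61.8, 48.3 and 51.1 CPM in control and 78.3, 61.1, 64.8 and 82 CPM in pregnant gilts. The call in GE remained in 3 of 8 leave-one-out fits and was lost without gilt 01, 04, 05, 06 or 13. SLC39A11 (ZIP11, gene 100518214, chr12:7759732-8204249, plus strand), an intracellular member, was at 24.3, 28.3, 21.9 and 29.8 CPM in control and 49.6, 76.6, 55.7 and 51.4 CPM in pregnant GE. Its log2 FC of 1.16 ± 0.21 (FDR = 0.146, edgeR) was called in all 8 leave-one-out fits. In S it was at 37.4, 30.6 and 30.9 CPM in control and 43.5, 47.5 and 45.7 CPM in pregnant libraries (log2 FC 0.50 ± 0.23, FDR = 0.445, edgeR). The pregnancy effect was not shown to differ between GE and LE for either gene (SLC39A11 FDR = 0.0930, SLC39A7 FDR = 0.111, interaction in edgeR).

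SLC39A10, an importer at the plasma membrane, was lower in GE than in LE (log2 FC −1.09 ± 0.14, FDR = 0.000161, edgeR, 7 of 8 gilts), at 25.3 to 67.3 and 21.3 to 55.2 CPM in control and pregnant GE against 48 to 69.1 and 53.2 to 118 CPM in LE. Of its exon bases, 32.3% overlap DNAH7 on the other strand, and the sources do not say whether reads were counted by strand. The same holds for SLC30A6 with NLRC4 (29.5%), SLC9A7 with CHST7 (16.9%), SLC41A3 with ZXDC (12.9%) and SLC39A6 with ELP2 (10.05%). SLC39A3, listed only for LE, was at 10.5, 4.63, 5.65 and 5.86 CPM in control and 9.64, 9.03, 7.10 and 6.33 CPM in pregnant libraries. In LE, SLC39A9 was at 121, 133, 143 and 122 CPM in control and 198, 178, 176 and 194 CPM in pregnant gilts (log2 FC 0.52 ± 0.14, FDR = 0.0249, edgeR), groups that do not overlap but are not past the threshold. SLC39A6 was at 53.4, 62, 68.5 and 54.8 CPM in control and 43.4, 32.9, 41.3 and 39.6 CPM in pregnant LE (log2 FC −0.61 ± 0.17, FDR = 0.0271, edgeR). The acute-phase importer SLC39A14 was at 7.80, 3.33 and 3.31 CPM in control and 38.8, 20.4 and 10.1 CPM in pregnant S (log2 FC 2.28 ± 0.64, FDR = 0.231, edgeR). Its highest value was in gilt 01, the S library with high COL1A1. None of the 11 importers of LE was called, with a median log2 FC of 0.24. The median was 0.16 over the 10 of GE and 0.47 over the 10 of S.

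Averaged over both states, the zinc-binding metallothioneins were higher in GE than in LE. Of the 6 genes listed as zinc buffers and sensors, 4 were measured, and all of them (MT1A, MT1D, MT3 and MTF1) were higher in GE than in LE at an FDR below 0.01 (4 of 4 measured, against 10.4% of all genes). MT1A was at 20.3, 109, 94.1 and 106 CPM in control and 27.9, 54.4, 46.5 and 117 CPM in pregnant GE, and at 13.9, 22.6, 63.5 and 25.8 CPM in control LE. In pregnant LE it was at 0, 0, 0 and 6.33 CPM, with no counts in 3 of 4 libraries. The log2 FC between GE and LE was 3.41 ± 0.38 for MT1A, 2.92 ± 0.35 for MT1D, 2.21 ± 0.31 for MT3 and 0.57 ± 0.12 for MTF1 (FDR = 7.45e-05, 0.000102, 0.000209 and 0.00300, edgeR), and that of MTF1 was lost without gilt 04, 05 or 13. These differences average both states. In control gilts MT1D was at 41.8, 389, 422 and 159 CPM in GE and 24.8, 107, 308 and 48.5 CPM in LE. MT3 was at 3.24, 13.4, 29 and 14 CPM in control GE and 4.89, 12, 27.5 and 10.1 CPM in control LE. In pregnant gilts MT3 was at 4.56, 21.3, 15.3 and 29.1 CPM in GE and 0, 0, 0.617 and 2.85 CPM in LE. For MT1A, MT1D and MT3, every pregnant LE library was below every control LE library. Their log2 FC in LE, −3.92, −3.86 and −3.53, missed the threshold and depends on the prior count where libraries are at 0 (FDR = 0.0138, 0.0145 and 0.0116, edgeR). Only for MT3, of these 4, did the pregnancy effect differ between GE and LE past the threshold, by 4.21 ± 0.61 (FDR = 0.00719, edgeR), a call lost without gilt 01, 02, 03, 04, 05 or 06. Metallothionein genes are related in sequence, and how reads shared between any of them were counted is not stated.

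**Figure D4:**
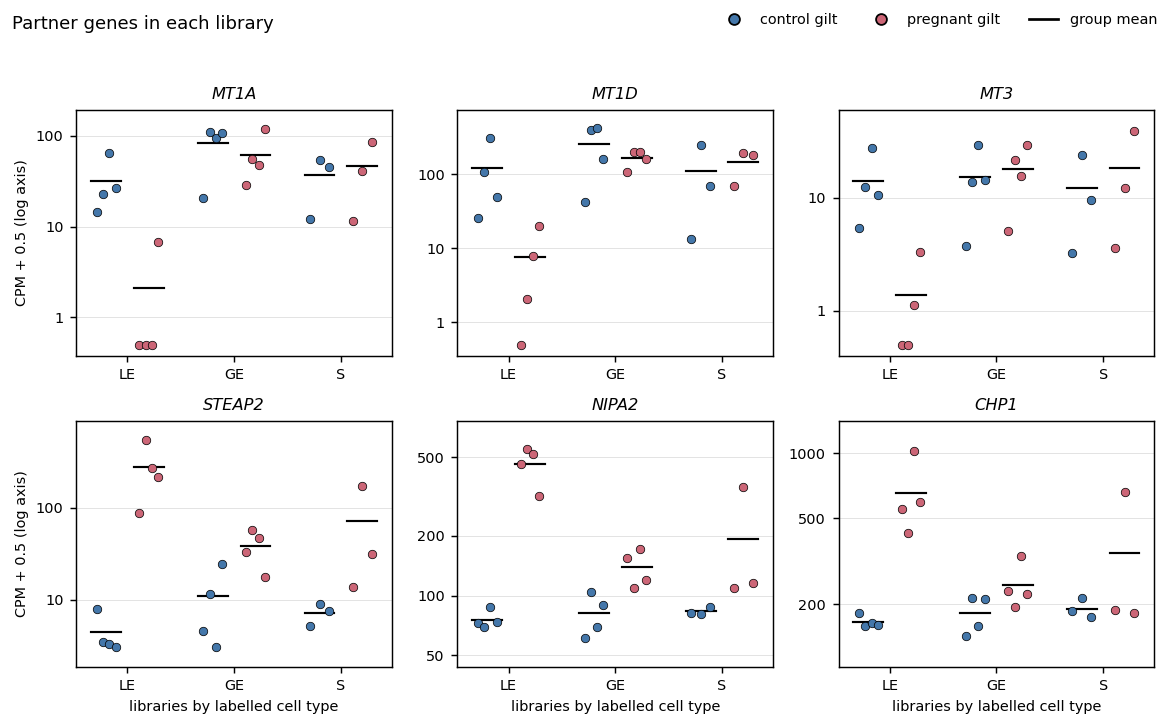
CPM + 0.5 on a log axis of 6 partner genes of the carriers in every library (points), with group means as lines. The metallothioneins MT1A, MT1D and MT3 are lower in all pregnant than in all control LE libraries, and STEAP2, NIPA2 and CHP1 are higher in all pregnant than in all control LE libraries.

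Promoter stretches are shown for SLC30A2 and SLC31A2, the zinc and copper carriers that were lower in pregnant LE, and for MT1A, whose counts were lower in the same libraries. Each stretch is the 250 bases before the annotated gene start, read from the Sscrofa11.1 genome (RefSeq) on the strand of the gene, at chr6:83484877-83485126 for SLC30A2 (minus strand), chr1:253794755-253795004 for SLC31A2 (plus strand) and chr6:18671766-18672015 for MT1A (plus strand). Capitals mark the core of the metal response element, searched as TGCACNC and TGCGCNC on both strands, with overlapping matches joined.
SLC30A2: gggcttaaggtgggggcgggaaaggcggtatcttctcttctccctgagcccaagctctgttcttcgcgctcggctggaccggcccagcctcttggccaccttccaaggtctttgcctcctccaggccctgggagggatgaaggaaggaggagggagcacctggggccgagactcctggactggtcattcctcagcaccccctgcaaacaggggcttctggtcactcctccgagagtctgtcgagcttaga
SLC31A2: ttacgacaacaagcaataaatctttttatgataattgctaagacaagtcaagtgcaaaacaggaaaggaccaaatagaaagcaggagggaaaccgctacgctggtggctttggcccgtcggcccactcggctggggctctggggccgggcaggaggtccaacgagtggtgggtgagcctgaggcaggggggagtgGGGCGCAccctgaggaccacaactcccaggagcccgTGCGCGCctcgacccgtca
MT1A: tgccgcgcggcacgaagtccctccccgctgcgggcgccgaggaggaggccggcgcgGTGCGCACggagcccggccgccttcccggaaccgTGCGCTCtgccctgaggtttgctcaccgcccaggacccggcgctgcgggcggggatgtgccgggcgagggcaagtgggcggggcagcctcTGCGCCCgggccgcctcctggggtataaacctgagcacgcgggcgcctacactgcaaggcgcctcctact
MT1A held 4 matches, of which 2 overlap on opposite strands, SLC31A2 held 2, and SLC30A2 held none in this window. Of the 12397 listed genes with such a window, 26.9% held a match and 7.0% held 2 or more. Among the 52 carriers 17 held a match (32.7%), and among the 19 zinc carriers 4 did (21.1%). A match describes the letters only.

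SLC9A4 (NHE4, gene 396786, chr3:51686001-51749996, minus strand) is a basolateral sodium-proton exchanger known from gastric and renal epithelium. Control LE held 416, 406, 500.3 and 359 CPM and pregnant LE 66.2, 78.6, 85.2 and 156 CPM. The groups were far apart, and the log2 FC was −2.11 ± 0.27 (FDR = 0.000619, edgeR), a 4.32-fold decrease called without each gilt. The libraries labelled S held 551, 261 and 348 CPM in control and 14, 61.6 and 32.5 CPM in pregnant gilts, control levels like those of LE. The log2 FC in S was −3.39 ± 0.57 (FDR = 0.0958, edgeR), and the call was lost only without gilt 14. The 10 epithelial markers summed to 2923 to 3554 CPM in control S, against 3139 to 4684 CPM in LE. In pregnant S of gilts 01, 05 and 14 they summed to 1257, 4439 and 2491 CPM. The part of epithelial cells in the log2 FC of SLC9A4 in S was not tested. GE varied more, with 62.9, 54.2, 292 and 4.38 CPM in control and 31.9, 7.19, 23.6 and 28.7 CPM in pregnant gilts (log2 FC −2.17 ± 0.98, FDR = 0.629, edgeR). GE was below LE in 8 of 8 gilts, with a log2 FC of −2.52 ± 0.48 (FDR = 0.00145, edgeR).

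SLC9A2 (NHE2, gene 100101921, chr3:51535798-51623003, minus strand), an apical exchanger, lies 63.0 kb from SLC9A4 on the same strand and changed in the opposite direction. It was at 54.5, 49.2, 69.9 and 44.7 CPM in control and 130.1, 137, 117 and 102 CPM in pregnant LE, without overlap (log2 FC 1.14 ± 0.19, FDR = 0.00206, edgeR). The call was lost without control gilt 04. Like SLC9A4 it was lower in GE than in LE (log2 FC −2.10 ± 0.32, FDR = 0.000353, edgeR), with 6.49, 15.9, 35 and 12.3 CPM in control and 47.6, 24.7, 28.9 and 6.73 CPM in pregnant GE, and in 8 of 8 gilts. S was at 53, 29.4 and 47 CPM in control and 24.8, 81.4 and 15.3 CPM in pregnant gilts, with the highest value in gilt 05. The other 5 exchangers were not called in any comparison. The intracellular exchanger SLC9A8 had a lower value in each pregnant than in each control LE library, at 48.2 to 76.6 against 84 to 97.4 CPM, but with an FDR of 0.0533 (edgeR).

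**Figure D5:**
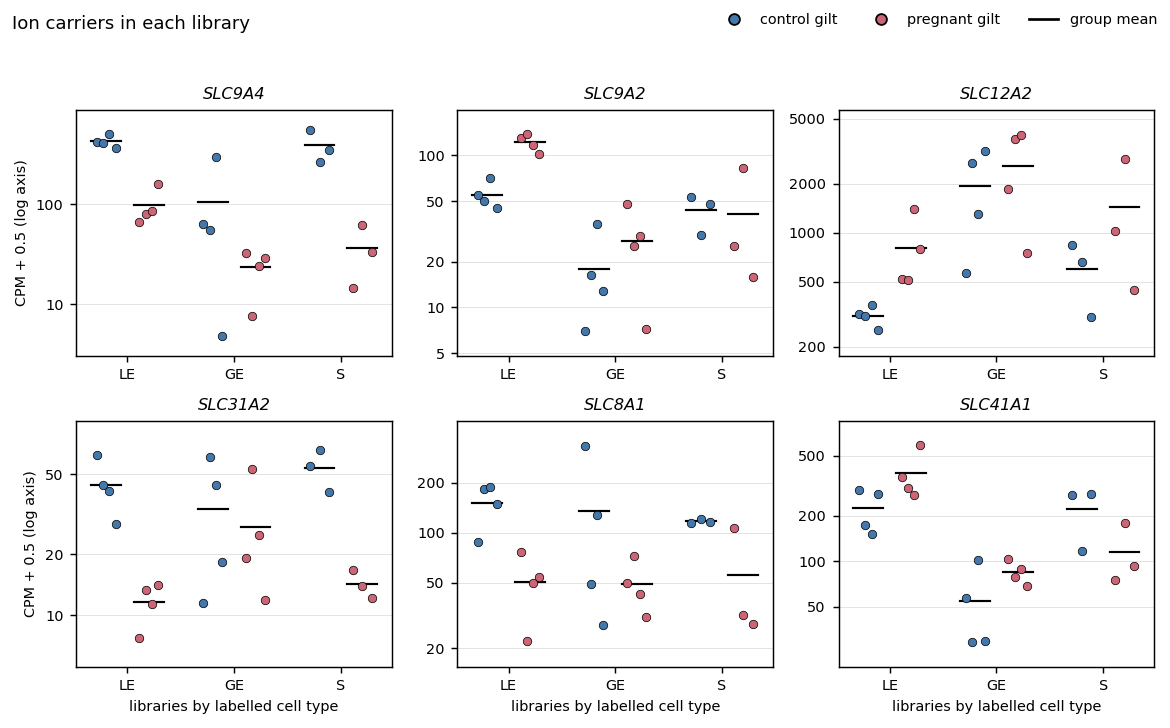
CPM + 0.5 on a log axis of 6 ion carriers in every library (points), by cell type and state, with group means as lines. SLC9A4, SLC31A2 and SLC8A1 are lower and SLC9A2 and SLC12A2 higher in all 4 pregnant than in all 4 control LE libraries, SLC9A4 and SLC31A2 are lower in all 3 pregnant S libraries, and SLC41A1 is lower in the GE than in the LE library of every gilt.

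SLC12A2 (NKCC1, gene 100516960, chr2:131016430-131109307, plus strand), the basolateral chloride loader of secretory epithelia, was higher in GE than in LE. It was at 570.1, 2658, 1311 and 3146 CPM in control and 1849.5, 3739, 3953 and 756 CPM in pregnant GE, against 316, 311, 362 and 254 CPM in control and 520.3, 517, 1396 and 790.2 CPM in pregnant LE. The difference was 2.02 ± 0.39 (FDR = 0.00162, edgeR), seen in 7 of 8 gilts and lost without gilt 04. All pregnant LE libraries were above all control LE libraries, but the log2 FC of 1.37 ± 0.32 missed the threshold (FDR = 0.0122, edgeR) and passed it without gilt 01 or 03. The potassium-chloride cotransporters SLC12A4 and SLC12A7, and SLC12A9, were not called. Their median levels lay between 9.81 and 49.1 CPM in the 6 groups. GE also held more of the kinase STK39 (SPAK), which acts on SLC12A2 (log2 FC against LE 2.10 ± 0.25, FDR = 0.000104, edgeR), and more of the chloride channel CFTR (1.86 ± 0.32, FDR = 0.000698, edgeR). Both belong to the list of 20 scaffolds and kinases of exchangers and cotransporters, of which 13 were compared. Of these, 4 were called higher and 1 lower in GE (10.4% of all genes in each direction). The list median was −0.06, with 6 values higher and 7 lower in GE.

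Bicarbonate and anion carriers showed no call. SLC4A4 (NBCe1), which brings bicarbonate into secretory cells, was listed for GE and S only. It was at 30.4, 41.2, 19.1 and 30.9 CPM in control and 59.8, 133, 73 and 45.7 CPM in pregnant GE, without overlap, and at 14.8, 11.2 and 6.25 CPM in control and 21, 32.8 and 38 CPM in pregnant S, also without overlap. The log2 FC of 1.36 ± 0.36 in GE (FDR = 0.354, edgeR) and 1.54 ± 0.41 in S (FDR = 0.213, edgeR) did not pass the threshold. SLC4A11 was listed for LE and S, at 44.1, 20.3 and 22.8 CPM in control and 5.43, 9.71 and 8.89 CPM in pregnant S (log2 FC −1.80 ± 0.44, FDR = 0.176, edgeR) and at 32, 33.5, 26.5 and 26 CPM in control and 7.23, 9.56, 9.57 and 27.6 CPM in pregnant LE. SLC4A7 was at 114 ± 22.7 and 137 ± 15.9 CPM (mean ± SD, n = 4) in control and pregnant LE and 196 ± 121 and 194 ± 84 CPM in GE. SLC4A3, listed only for GE, was at 6.08, 5.96, 5.97 and 8.21 CPM in control and 10.6, 7.82, 4.71 and 6.02 CPM in pregnant gilts. SLC26A2 was at 61.4 ± 9.45 and 81.2 ± 13.5 CPM in control and pregnant LE and 68.9 ± 15.7 and 78 ± 32.9 CPM in GE. The chloride-iodide exchanger SLC26A4 (pendrin) was listed only for LE, at 4.14, 12, 20.8 and 5.62 CPM in control and 3.61, 13.3, 6.48 and 11.08 CPM in pregnant libraries. Of the carbonic anhydrases, which make the bicarbonate, 2 of 15 were measured in S. CA12 was lower in pregnant S (17.5, 21.5 and 19.5 against 3.10, 0.670 and 1.84 CPM, log2 FC −3.45 ± 0.55, FDR = 0.0807, edgeR). In LE it was at 17.7, 25.3, 19.8 and 15.2 CPM in control and 9.64, 11.2, 1.85 and 7.92 CPM in pregnant gilts, without overlap and without a call. CA12 was also lower in GE than in LE (log2 FC −1.27 ± 0.33, FDR = 0.00961, edgeR, called in 1 of 8 leave-one-out fits).

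Of the copper carriers, SLC31A2 was lower in pregnant gilts and SLC31A1 was not called. SLC31A1 (CTR1), the high-affinity importer, was at 372 ± 96.3 and 362 ± 100.3 CPM in control and pregnant LE (mean ± SD, n = 4), with a log2 FC of −0.04 ± 0.25 (FDR = 0.915, edgeR). SLC31A2 (CTR2, gene 100514386, chr1:253795005-253805287, plus strand), which lies 63.1 kb upstream on the same strand, was at 61.7, 43.5, 40.9 and 27.6 CPM in control and 7.23, 12.7, 10.8 and 13.6 CPM in pregnant LE. The log2 FC was −1.92 ± 0.29 (FDR = 0.00146, edgeR), called without each gilt. In S it was at 54.2, 65.8 and 40.1 CPM in control and 16.3, 13.4 and 11.6 CPM in pregnant gilts, without overlap, a log2 FC of −1.93 ± 0.30 (FDR = 0.0807, edgeR) that lost its call without gilt 04. GE libraries overlapped, with 10.9, 60.6, 43.5 and 17.8 CPM in control and 18.7, 52.5, 24.4 and 11.3 CPM in pregnant gilts (log2 FC −0.29 ± 0.59, FDR = 0.921, edgeR), and the difference of the pregnancy effect from LE was 1.57 ± 0.60 (FDR = 0.187, edgeR). Of 8 genes of copper handling, 5 were measured in each cell type. None was called for pregnancy (10.0%, 0.694% and 1.47% of all genes in LE, GE and S).

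Of the iron carriers, SLC11A2 was higher in GE than in LE and SLC40A1 was not called. SLC11A2 (DMT1), the iron importer, was higher in GE than in LE in 8 of 8 gilts, by 0.57 ± 0.12 (FDR = 0.00205, edgeR), with 80.7 to 116 and 88.7 to 129 CPM in control and pregnant GE and 60.7 to 82.9 and 54.2 to 87.6 CPM in LE. Its gene lies on an unplaced scaffold. The call was lost without gilt 05. SLC40A1 was at 50.1 to 133 and 41.5 to 112 CPM in control and pregnant GE and 40.2 to 76.9 and 21.9 to 51 CPM in LE (FDR between the cell types 0.0474, edgeR). Of 27 genes of iron handling, 17 were measured in LE, where the metalloreductases STEAP2 and STEAP4 were higher in pregnant gilts (2 of 17, 11.8%, against 10.0% of all genes called and 6.33% called higher). STEAP2, which reduces iron and copper ahead of transport, went from 7.52, 2.99, 2.82 and 2.58 CPM in control to 86.7, 542, 268 and 212 CPM in pregnant LE (log2 FC 6.16 ± 0.61, FDR = 0.000154, edgeR). STEAP4 was at 33.5, 45.4, 78 and 46.1 CPM in control and 187, 171, 679 and 846 CPM in pregnant LE (log2 FC 3.22 ± 0.55, FDR = 0.00271, edgeR, lost without gilt 02, 04 or 13). In pregnant S the ferroxidase CP (ceruloplasmin) was lower, at 31, 28.8 and 38 CPM against 107, 93.9 and 146 CPM in control (log2 FC −1.79 ± 0.27, FDR = 0.0739, edgeR). LE also separated the states for CP, without a call. It was at 65.4, 74.3, 321 and 124 CPM in control and 15.7, 1.06, 11.7 and 38.3 CPM in pregnant LE. Between cell types, ACP5 (uteroferrin), the iron-binding secretion of pig glands, was higher in GE than in LE by 4.88 ± 0.53 (FDR = 7.15e-05, edgeR). Of the 17 genes of iron handling compared, 3 were called higher and 3 lower in GE (10.4% of all genes in each direction). The list median was 0.02.

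The listed phosphate carriers were SLC20A1 and SLC20A2. SLC20A1 (PiT1, gene 100518065, chr3:43844716-43860547, minus strand) was at 191, 193, 163 and 346 CPM in control and 249, 329, 382 and 149.9 CPM in pregnant GE, against 102, 97.1, 101 and 138 CPM in control and 106, 185, 121 and 126 CPM in pregnant LE. It was higher in GE in 8 of 8 gilts, by 0.96 ± 0.22 (FDR = 0.00457, edgeR), but the call remained in only 3 of 8 leave-one-out fits and was lost without gilt 01, 03, 04, 05 or 13. SLC20A2 was at 29 to 41.4 and 22.3 to 44.1 CPM in control and pregnant LE and 30.7 to 76.2 and 28.3 to 51.7 CPM in GE. Neither was called for pregnancy in any cell type.

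Among calcium exchangers, SLC8A1 (NCX1, gene 100622020, chr3:99823503-100257306, plus strand), which exports calcium against sodium, was at 87.6, 183, 188 and 148 CPM in control and 75.9, 21.8, 49.4 and 53.5 CPM in pregnant LE. The log2 FC of −1.63 ± 0.35 was just inside the threshold (FDR = 0.00922, edgeR). It was called in 2 of 8 leave-one-out fits and lost without gilt 03, 04, 05, 06, 13 or 14. SLC8A1 is known from muscle and nerve, and its highest level in any library, 331 CPM, was that of control GE of gilt 02, the library with high ACTA2. In LE, the library with high ACTA2 (pregnant gilt 01) also had the highest SLC8A1 of the pregnant group, and without this gilt the log2 FC was −1.85. Other libraries differed. Control LE of gilts 04 and 06 held 183 and 188 CPM of SLC8A1, with ACTA2 at 50.6 and 36.3 CPM. Pregnant GE of gilts 01 and 03 held 49.1 and 71.9 CPM of SLC8A1, with ACTA2 at 1154 and 786 CPM. The part of muscle cells in the values of SLC8A1 was not tested. SLC24A2, listed for LE and S, was at 6.39, 9.25, 7.41 and 9.37 CPM in control and 0, 1.06, 5.25 and 6.65 CPM in pregnant LE. SLC24A3 was listed only for GE, at 17.8, 5.46, 6.26 and 4.38 CPM in control and 7.60, 9.07, 1.77 and 2.48 CPM in pregnant libraries, with its highest value again in gilt 02.

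SLC41A1 (gene 100626641, chr9:66473369-66500367, minus strand) exchanges magnesium for sodium. It was lower in GE than in LE in all 8 gilts, at 56.8, 28.8, 101 and 29.3 CPM in control and 103, 78.5, 88.3 and 68.7 CPM in pregnant GE against 297, 173, 151 and 279.7 CPM in control and 361, 304, 275 and 585 CPM in pregnant LE. The difference was −2.18 ± 0.29 (FDR = 0.000164, edgeR) and was called without each gilt. Of 10 listed genes of magnesium handling, 5 were lower and 2 higher in GE than in LE (10.4% of all genes in each direction). In LE, 4 of the 10 were higher in pregnant than in control gilts (the channel TRPM6, the exporter CNNM4 and the carriers NIPA1 and NIPA2), against 6.33% of all genes, and none was lower. TRPM6 was at 167, 206, 209.6 and 191 CPM in control and 435, 590.4, 917 and 803 CPM in pregnant LE (log2 FC 1.83 ± 0.24, FDR = 0.00069, edgeR). NIPA2 was at 72.2, 69.4, 86.8 and 72.9 CPM in control and 461, 546, 516 and 316 CPM in pregnant LE (log2 FC 2.60 ± 0.20, FDR = 5.18e-05, edgeR). NIPA1 and CNNM4 rose by 2.96 and 1.45 on the log2 scale (FDR = 8.22e-05 and 0.00111, edgeR). SLC41A1 itself had a log2 FC of 0.76 ± 0.30 (FDR = 0.0965, edgeR), with overlapping groups.

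Genes that drive or anchor the exchangers were called for pregnancy in LE, and their pregnancy effect was not shown to differ between cell types (0 of 13 tested, edgeR interactions). Of 20 scaffolds and kinases, 14 were measured in LE and 4 were higher in pregnant gilts, with a list median of 0.63 against 0.01 over all genes, and 6.33% of all genes were called higher. The medians were 0.32 in GE and 0.41 in S, with none called. CHP1, an essential cofactor of SLC9A exchangers, was at 181, 158, 164 and 160.0 CPM in control and 554, 429, 1026 and 597 CPM in pregnant LE (log2 FC 1.97 ± 0.26, FDR = 0.000683, edgeR). The kinase SGK1, which activates sodium transport, rose by 2.33 ± 0.22 on the log2 scale (FDR = 0.000108, edgeR), WNK1 by 1.18 ± 0.18 (FDR = 0.00138) and the membrane linker EZR by 1.02 ± 0.20 (FDR = 0.00557, lost without gilt 02, 04, 05, 06 or 13). In the sodium-potassium pump, 2 of 8 measured genes were higher in pregnant LE. The beta subunit ATP1B3 was among them (200.1, 194, 147 and 151 CPM in control against 502, 678, 1091 and 1411 CPM, log2 FC 2.41 ± 0.32, FDR = 0.00069, edgeR), as was the regulator FXYD3 (log2 FC 2.25 ± 0.34, FDR = 0.00130, edgeR). FXYD4 was at 32, 27.9 and 33.4 CPM in control S and at 0, 1.0 and 0.919 CPM in pregnant S (FDR = 0.0297, edgeR). In LE it was at 32.7, 59.9, 81.5 and 33 CPM in control and 0, 0.531, 1.85 and 14.6 CPM in pregnant gilts, also without overlap. Of 11 genes of phosphate handling, 6 to 7 were measured in a cell type and none was called for pregnancy. In GE, no gene of any of these partner lists was called for pregnancy (0.694% of all genes were).

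A further 8 listed carriers overlapped between pregnant and control libraries in each cell type and were called in no comparison. SLC9A9, an exchanger of late endosomes, was at 16.1 ± 4.00 CPM in control and 12.5 ± 3.28 CPM in pregnant LE (mean ± SD, n = 4). The anion exchanger SLC4A2 was at 41.3 ± 9.11 CPM in control and 36.8 ± 22.8 CPM in pregnant LE, SLC4A8 at 39.2 ± 7.81 and 43.5 ± 9.61 CPM, and the lysosomal anion carrier SLC26A11 at 17.7 ± 2.02 and 23.8 ± 13.9 CPM. Of the zinc importers, SLC39A1 was at 31.2 ± 5.31 and 36.6 ± 14.9 CPM, SLC39A8, which also carries manganese, at 17.5 ± 3.32 and 13.7 ± 9.69 CPM and SLC39A13 at 69.2 ± 15.4 and 60.6 ± 14.3 CPM. SLC41A2 had the largest log2 FC of the 8 in S, at 1.5 ± 0.60 (FDR = 0.374, edgeR).

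Whether the response to pregnancy differed between cell types was tested by interaction. No carrier passed an FDR of 0.01 in edgeR for GE against LE (0.395% of all genes passed, 0.244% with a higher and 0.150% with a lower effect in GE), S against LE (0.0188%) or S against GE (0%). At an unadjusted p below 0.05 there were 8, 9 and 7 carriers (17.3%, 15.2% and 9.90% of all genes). DESeq2 called SLC30A2 for GE against LE (3.53% of all genes) and no carrier in the other interactions. The calls in LE that were absent from GE and S are thus not shown to be particular to LE. Among the libraries labelled S, pregnant gilt 05 held 102 CPM of NIPA1 and 664 CPM of CHP1, against 73.8 to 165 and 429 to 1026 CPM in pregnant LE, whereas gilts 01 and 14 held 15.5 and 28.8 CPM of NIPA1.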

How the data were processed

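RNA captured by LCM had been made into low-input libraries, aligned with Hisat2 and cleared of PCR duplicates by random adapter bases. The deposited values are raw read counts per NCBI gene of Sscrofa11.1, in 1 table per cell type that the authors had filtered by a minimum of CPM. The counting tool, the use of strand and the minimum are not given in the sources used here. Groups and gilts came from the labels.

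The members, partner lists and marker lists were chosen with earlier results of these data known. Pregnant and control gilts were compared within each table by the quasi-likelihood test of edgeR 4.0.16 (R 4.3.3, TMM), at the study's thresholds of FDR below 0.01 in LE and unadjusted p below 0.0021 in GE and S. Cell types and interactions were tested in a joint fit of the 22 libraries over the 10643 genes of all 3 tables, with the gilt as a fixed block and FDR below 0.01. SE was the absolute log2 FC divided by the square root of F. Named with values were carriers called in any comparison, the highest of each family per kilobase in a cell type, carriers listed for 1 cell type, and partners called for pregnancy, and other genes were chosen after their values were seen. Some members and partners, called ones included, count in the totals but are not reported here by name. The fits were tested on simulated counts.

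The titles give the same animals for LE, GE and S. Deviations from the group means correlated with a median r of 0.257 between GE and LE of the same gilt (6 of 8 pairs above 0.1), 0.468 between GE and S (5 of 6) and 0.314 between LE and S (6 of 6). Alternatives were other size factors, filterByExpr, DESeq2 1.42.0, the likelihood ratio test, limma 3.58.1 voom with the gilt as a random block (consensus correlation 0.268), leaving out each gilt and, chosen after seeing the data, leaving out gilts 01 and 02. Intervals and floors (3 counts) cover counting error only.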

Additional observations from a re-analysis of the deposited data

Results flagged for a closer look

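In groups of 4 libraries, 7 of 88 groups tested over 24 named carriers held a library set apart from the other 3 (Dixon's ratio above its 95% critical value), where chance would give about 4.40. For SLC20A1, gilt 13 was high in control LE, at 138 CPM against 97.1 to 102 CPM, and in control GE, at 346 CPM against 163 to 193 CPM. Control GE of gilt 02, the library with high ACTA2, was high for SLC39A10, at 67.3 CPM against 25.3 to 28.4 CPM, and for SLC24A3, at 17.8 CPM against 4.38 to 6.26 CPM, and the part of other cells in these values was not tested. SLC4A3 was at 8.21 CPM in control GE of gilt 13 against 5.96 to 6.08 CPM. In pregnant GE, SLC30A2 was at 216 CPM in gilt 03 against 55.1 to 72.4 CPM, and SLC30A5 at 147 CPM in gilt 05 against 81.0 to 87.5 CPM.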

How the results depend on the processing

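No log2 FC changed sign among the carriers called with all gilts, each followed in the comparison that called it. Comparisons without a call were not included. Of the 180 values with 1 gilt left out, 151 kept their direction and side of the threshold and 29 lost the threshold, and of the 161 under other settings 149 and 12 did. Leaving out 1 gilt gave 4 to 8 called carriers in LE (6 with all gilts), 1 to 2 in GE (2), 1 to 3 in S (2), 9 to 13 for GE against LE (11) and 0 to 2 for S against LE (2). DESeq2 called 10 carriers in LE (19.1% of all genes), 6 in S (4.44%), 4 for S against LE (7.16%), 1 for S against GE (0.648%) and 1 for the interaction of GE with LE (3.53%), and the likelihood ratio test called 5 in S (4.01%). At an FDR below 0.05 there were 10 in LE, 0 in GE, 0 in S, 17 for GE against LE and 5 for S against LE. Without gilts 01 and 02 together, no carrier (0) was called for S against LE. In the paired analysis, a random replicate block left 1 of 45 carriers called in LE, and without the block 1 was called for S against LE. Size factors moved no count by over 1.5 times. With library size alone the median log2 FC of all LE genes was −0.14 in place of 0.01, and 582 genes were called higher and 570 lower in place of 722 and 424, while the carriers remained 2 higher and 4 lower. Depth limited the low carriers: 3 counts were 0.703 to 3.61 CPM.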
